A study of Mus musculus with 2 samples.

Results

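The genes of the interleukin-1 (IL-1) family, with IL-6 and tumor necrosis factor (TNF), were followed in mouse lung cells 1 week after bleomycin. The members were the 9 genes with the symbols Il1a, Il1b, Il1r1, Il1rn, Il18, Il33, Il1rl1, Il6 and Tnf, and all 9 were found among the 31053 genes of both count matrices. The study made 2 single-cell libraries with a 10x Genomics 3′ kit, 1 from Pclaf WT and 1 from Pclaf KO mice aged 8 to 10 weeks. Both groups received bleomycin at 1.35 U/kg, and lung cells were sorted as Cd31-, Cd45- and Epcam+, which describes epithelial cells. The KO mice lack Pclaf in all tissues from the germline, so immune, endothelial and mesenchymal cells carry the loss as well as epithelial cells. No untreated library was analysed, so the values describe injured lung only. Each genotype had 1 library and so no replicate, and the number of mice behind a library is not in the labels. No test between genotypes was therefore made. All intervals are exact 95% intervals that cover counting error only, and genotype and library cannot be told apart.

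Cytokines of the IL-1 family act through paired receptors that recruit the adaptor MyD88 and switch on NF-kB and MAP kinases. IL-1α and IL-1β share the receptor encoded by Il1r1, and Il1rn encodes the natural antagonist that occupies this receptor without signalling. IL-1β and IL-18 are made as precursors that are cut by caspase-1 in inflammasomes, whereas IL-33 is a nuclear protein released from damaged barrier cells and is read by ST2, the product of Il1rl1. TNF acts through its own receptors, and IL-6 acts through IL-6 receptor alpha and the shared chain gp130. In the lung these cytokines are known for their part in the response to injury, in the recruitment of neutrophils and in the support of alveolar repair.

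The WT matrix held 30669 barcodes with a median of 2105 UMIs, and the KO matrix held 17172 with a median of 5682, where a UMI marks 1 captured RNA molecule. After filters on genes per cell and mitochondrial share, 30187 WT cells and 15637 KO cells remained. The composition of the WT library went against the sort named in its label. Epcam, the epithelial marker of the sort, was detected in 5.83% of WT cells and 46.8% of KO cells, and Ptprc, which encodes CD45, was detected in 39.6% and 3.30%. Pecam1, which encodes CD31, was detected in 41.5% and 4.94%. Cells were assigned to classes by marker genes, none of which is a member, and the assigned cells were 19492 in the library labelled WT and 11988 in KO. By lineage markers alone, immune cells made up 38.4% of WT cells and 3.33% of KO cells, and epithelial cells 3.03% and 57.9%. Immune cells that also took a class were 31.8% of kept WT and 2.71% of kept KO cells, and such epithelial cells 2.74% and 54.4%. The shares of UMIs by lineage given below are those of cells that took a class. Each class is called "like" the cell type of its markers, and 4036 WT and 2051 KO cells lay exactly at a limit of the gate. The 2 matrices shared 163 barcodes. Pclaf itself had 39.3 CPM, that is UMIs per 1000000 UMIs, over all WT cells and 5.19 CPM in KO. In the proliferating alveolar progenitor cells (PAPCs), which the gate takes from cell cycle markers, it had 121 CPM in WT, from 19 UMIs in 18 cells, and 97.1 CPM in KO, from 245 UMIs in 229 cells. The KO library thus still held Pclaf UMIs, and the labels do not say which part of the gene the allele lacks.

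The members lie on 6 mouse chromosomes in the GRCm38 assembly. Il1a (chromosome 2, 129299610 to 129309972) and Il1b (129364570 to 129371139) lie on the minus strand with 54.6 kb between them, and Il1rn lies on the same chromosome at 24336853 to 24351494. The receptor genes Il1r1 (chromosome 1, 40225080 to 40317257) and Il1rl1 (40429570 to 40465415) are 112.3 kb apart on the plus strand. Il18 lies on chromosome 9 at 50554827 to 50581840, Il33 on chromosome 19 at 29925114 to 29960718, Il6 on chromosome 5 at 30013114 to 30019981 and Tnf on chromosome 17 at 35199381 to 35202007. The promoters of Il1a, Il1b, Tnf, Il6 and Il33 are shown. Among WT classes of at least 50 cells, Il1a, Il1b and Tnf RNA was highest in myeloid cells, Il6 RNA in fibroblasts and Il33 RNA in epithelial cells. Each sequence is the 250 bases before the RefSeq start in GRCm38.p6, 5′ to 3′ on the strand of the gene, and capitals mark matches to 6 motifs searched on both strands. The motifs were TATAAA (the box of core promoters, in 12.4% of 32851 windows of this length), TGANTCA (AP-1, 6.75%), GACGTCA (cAMP response element, 2.78%), TTGNNCAA (C/EBP, 5.65%), an NF-kB consensus of 10 bases (1.41%) and GAGGAA (PU.1, 23.3%).
Il1a, chr2:129309973-129310222, minus strand: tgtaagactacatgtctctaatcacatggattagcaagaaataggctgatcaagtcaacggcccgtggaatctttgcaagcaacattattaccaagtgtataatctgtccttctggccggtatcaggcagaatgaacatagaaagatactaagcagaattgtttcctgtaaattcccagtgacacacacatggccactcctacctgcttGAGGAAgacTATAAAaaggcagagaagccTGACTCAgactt
Il1b, chr2:129371140-129371389, minus strand: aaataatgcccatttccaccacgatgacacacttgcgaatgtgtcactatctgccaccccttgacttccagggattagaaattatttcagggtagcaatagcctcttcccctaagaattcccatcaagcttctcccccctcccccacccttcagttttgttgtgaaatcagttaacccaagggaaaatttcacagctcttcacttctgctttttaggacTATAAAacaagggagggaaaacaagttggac
Tnf, chr17:35202008-35202257, minus strand: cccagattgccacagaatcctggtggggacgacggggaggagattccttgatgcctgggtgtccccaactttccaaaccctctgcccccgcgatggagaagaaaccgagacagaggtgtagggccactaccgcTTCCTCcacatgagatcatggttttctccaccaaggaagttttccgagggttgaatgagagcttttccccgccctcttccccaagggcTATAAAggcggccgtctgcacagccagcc
Il6, chr5:30012864-30013113, plus strand: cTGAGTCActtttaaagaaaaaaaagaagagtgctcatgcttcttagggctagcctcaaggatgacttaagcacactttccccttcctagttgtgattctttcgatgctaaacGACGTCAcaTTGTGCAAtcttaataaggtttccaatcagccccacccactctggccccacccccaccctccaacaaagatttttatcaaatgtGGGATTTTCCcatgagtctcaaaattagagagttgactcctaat
Il33 at its first listed start, chr19:29924863-29925112, plus strand: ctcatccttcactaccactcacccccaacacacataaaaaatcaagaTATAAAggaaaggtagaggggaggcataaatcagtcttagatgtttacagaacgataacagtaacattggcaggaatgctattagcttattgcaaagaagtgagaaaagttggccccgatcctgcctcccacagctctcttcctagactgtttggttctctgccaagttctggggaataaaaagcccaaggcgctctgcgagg
Il33 at its second listed start, chr19:29945540-29945789, plus strand: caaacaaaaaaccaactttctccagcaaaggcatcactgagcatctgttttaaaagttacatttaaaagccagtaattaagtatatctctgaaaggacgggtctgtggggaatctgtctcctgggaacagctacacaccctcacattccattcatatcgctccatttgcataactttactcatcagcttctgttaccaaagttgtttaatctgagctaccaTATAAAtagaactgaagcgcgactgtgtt
The Il1a, Il1b and Tnf windows each held a TATA box that began 32, 31 and 29 bases before the start. Il1a also held an AP-1 and a PU.1 match, and Tnf a PU.1 match on the other strand. The Il6 window held AP-1, cAMP response element, C/EBP and NF-kB matches at 249, 137, 128 and 44 bases before the start, and no TATAAA. Il33 had a TATAAA 203 bases before its first start and 29 bases before its second. A match describes letters only and no binding was measured.

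The 9 genes had different sources. Il1b had 37079 UMIs in WT cells, and immune cells held 75.9% of them. In KO it had 2171 UMIs with 68.7% in immune cells. Neutrophil-like cells alone held 45.0% of the WT Il1b UMIs although they were 2.29% of the cells, and 49.3% in KO, where they were 0.205% of the cells. Immune cells also held most of the WT UMIs of Il1a (66.9%), Il1rn (66.3%), Il18 (62.7%), Il1rl1 (69.4%) and Tnf (66.2%). Il33 differed from these genes, since epithelial cells held 38.6% of its 2510 WT UMIs and 82.9% of its 23148 KO UMIs. AT2-like cells, the surfactant-making progenitors of the alveolus, held 37.1% of Il33 UMIs in WT as 1.26% of cells and 79.2% in KO as 35.8% of cells. Il6 was divided between immune (40.8%) and mesenchymal cells (35.4%) in WT, and mesenchymal cells held 70.6% in KO. Il1r1, the receiver of both IL-1 ligands, was spread most widely: endothelial cells held 35.2%, mesenchymal cells 27.3% and immune cells 12.2% of its WT UMIs. In KO, epithelial cells held 48.5% and mesenchymal cells 37.8% of Il1r1 UMIs. Ungated cells, which took no class, were 35.4% of WT and 23.3% of KO cells. They held 20.5% of the WT Il1r1 UMIs, and over the genes from 20.4% (Il6) to 32.9% (Il33) in WT. In KO their share ran from 6.30% (Il6) to 28.5% (Il1a). Such shares follow the number and depth of the cells that each library held, and they are no measure of the level per cell.

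**Figure D1:**
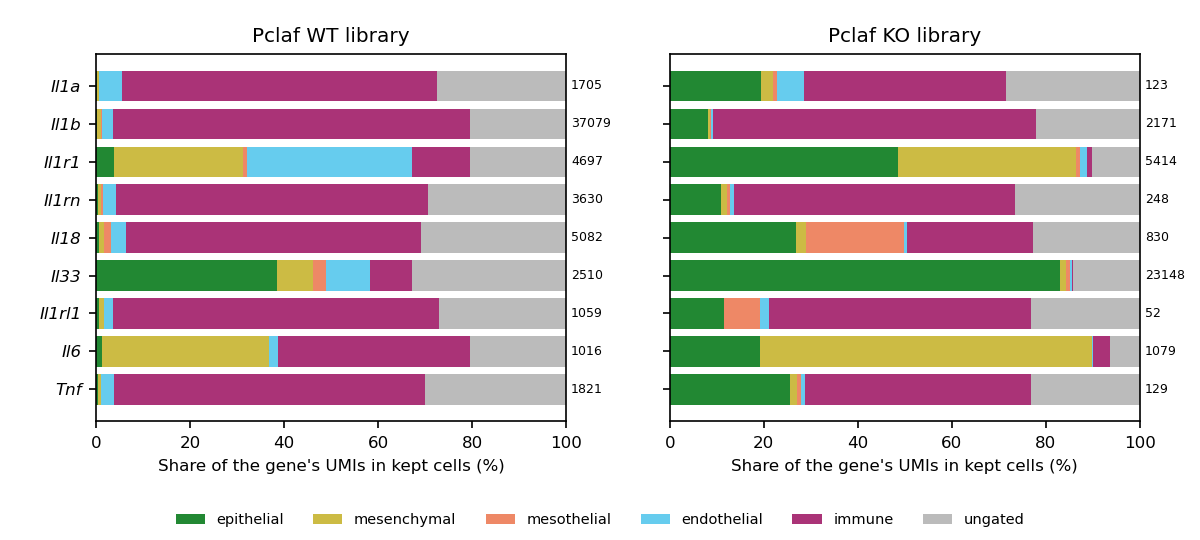
Sources of the 9 genes in the Pclaf WT and Pclaf KO libraries. Each bar is 1 gene in 1 library, and its parts give the percent of that gene's UMIs in each lineage of gated cells and in ungated cells (horizontal axis, percent). Il33 is the gene with the largest epithelial part in both libraries, and immune cells hold the largest part of Il1b in both.

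Levels per class were compared as CPM, with the UMIs of all cells of that class as the total. The class with the highest CPM among the 29 WT classes of at least 50 cells was the neutrophil-like class for Il1a, Il1b and Il1rn, the alveolar macrophage-like class for Il18, AT2-like cells for Il33 and ILC2-like cells for Il1rl1. Venous endothelial-like cells led for Il1r1, adventitial fibroblast-like cells for Il6 and C1q+ macrophage-like cells for Tnf. Levels of different genes are not compared here, because detection differs between genes.

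**Figure D2:**
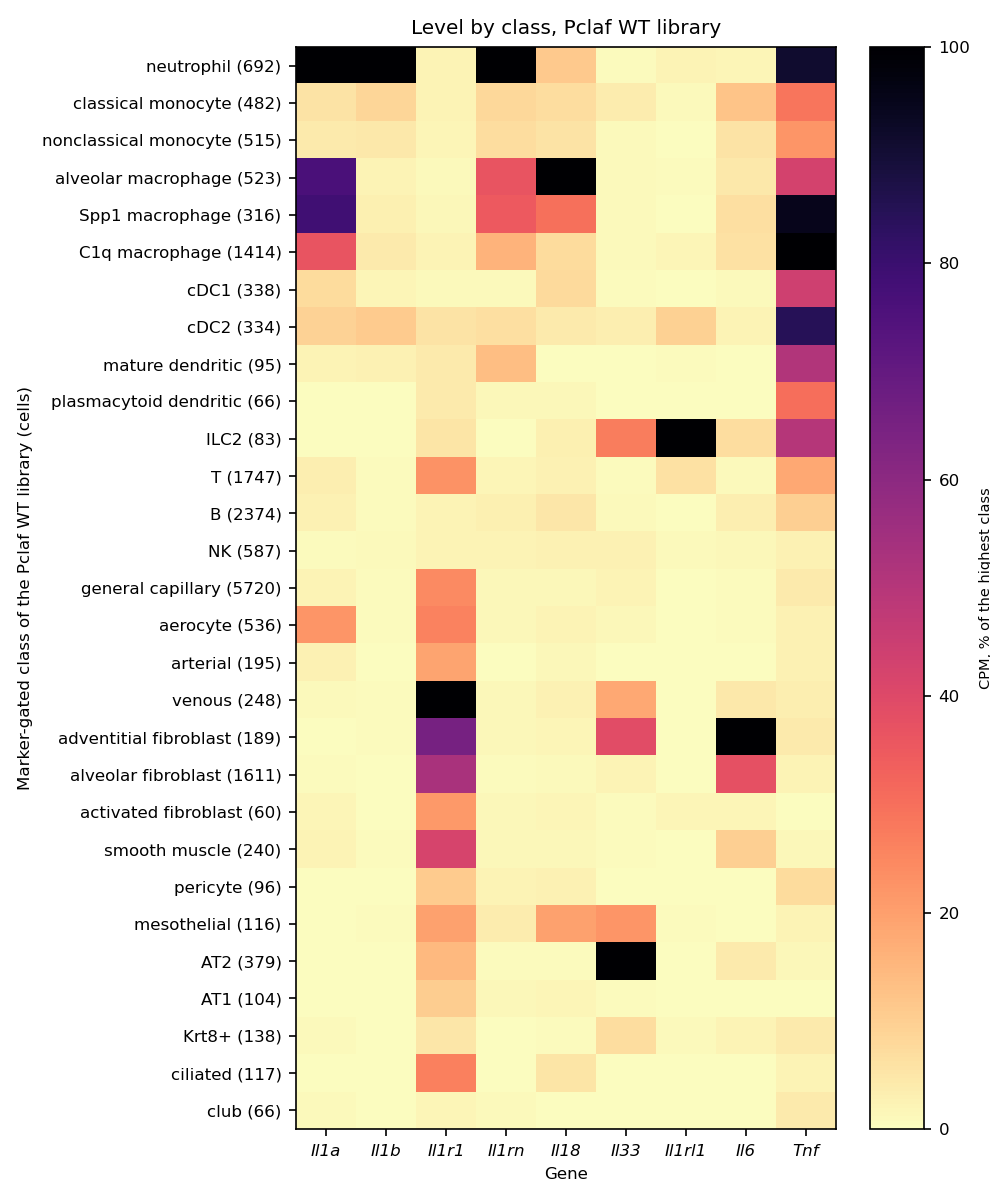
Level of each of the 9 genes (columns) over the 29 classes of at least 50 cells in the WT library (rows), as percent of the CPM in that gene's top class. The columns of Il1a, Il1b, Il1rn and Tnf are darkest in myeloid rows, whereas Il33 is darkest in AT2-like cells, Il1r1 in venous endothelial-like and Il6 in adventitial fibroblast-like cells. The Il33 value of ILC2-like cells came from a single cell.

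Il1b was by far highest in neutrophil-like cells, with 10998 CPM in WT (10832 to 11167, 692 cells), and it was detected in 98.1% of them. With each cell thinned to 1000 UMIs, to set cells at equal depth, 97.0% still held an Il1b UMI. Among WT classes of at least 50 cells, dendritic cells of the cDC2-like class followed with 1167 CPM and classical monocyte-like cells with 926 CPM. The smaller basophil or mast-like class had 813 CPM from 79 UMIs in 44 WT cells, and 0 UMIs in 5 KO cells. Nonclassical monocyte-like cells (492 CPM) and C1q+ macrophage-like cells (461 CPM) overlapped within counting error. The next group, Spp1+ macrophage-like (311 CPM), mature dendritic-like (268 CPM), alveolar macrophage-like (231 CPM) and cDC1-like cells (203 CPM), overlapped from neighbor to neighbor. NK-like cells, at 86.3 CPM, were below this group. In KO the neutrophil-like class held only 32 cells, and these had 17736 CPM of Il1b from 1070 UMIs (16689 to 18832). The log2 ratio of KO over WT in these cells was 0.69 (0.60 to 0.78), in a comparison of classes with at least 20 cells in both libraries that was added after seeing the data. The corresponding log2 ratios were -0.82 (-1.21 to -0.46) in C1q+ macrophage-like and -0.95 (-1.47 to -0.48) in alveolar macrophage-like cells. They were -0.69 (-1.22 to -0.21) in Spp1+ macrophage-like and -0.29 (-0.55 to -0.04) in classical monocyte-like cells. Intervals included 0 in nonclassical monocyte-like (-0.45, -1.07 to 0.10) and cDC1-like cells (0.16, -0.32 to 0.62). Ciliated cells, which should lack Il1b, were used as a measure of free RNA in droplets. Some other nonmyeloid classes had more Il1b in WT, with 84.7 CPM in adventitial fibroblast-like, 65.0 CPM in B-like and 45.5 CPM in general capillary-like cells. AT2-like cells had 10.6 CPM. The ciliated-like level is therefore no upper limit of the WT background, and NK-like cells were near the adventitial fibroblast-like level. Ciliated-like cells had 12.6 CPM of Il1b in WT (9 UMIs, median depth 5744 UMIs) and 1.09 CPM in KO (8 UMIs, median depth 7162 UMIs). The share of ciliated-like cells with an Il1b UMI was 7.69% in WT, and 1.71% after thinning.

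Il1a, which encodes the ligand that is active without cleavage, had its highest levels in 3 myeloid classes whose intervals overlapped from neighbor to neighbor. Neutrophil-like cells had 115 CPM in WT, Spp1+ macrophage-like cells 90.5 CPM and alveolar macrophage-like cells 87.9 CPM. C1q+ macrophage-like cells were lower, at 42.1 CPM. Outside the immune lineage, aerocytes, the capillary cells specialised for gas exchange, stood out with 25.4 CPM from 44 UMIs, whereas ciliated-like cells had 0 UMIs, which allows up to 4.21 CPM at 3 counts. In KO the Il1a counts were small, with 25 UMIs in alveolar macrophage-like cells (80.4 CPM), 9 in neutrophil-like cells (149 CPM), 9 in Spp1+ macrophage-like cells (48.1 CPM) and 5 in aerocyte-like cells (31.7 CPM).

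Il1rn, the antagonist, had the same leading class as Il1b. Neutrophil-like cells had 422 CPM in WT from 640 UMIs and 746 CPM in KO from 45 UMIs, a log2 ratio of 0.82 (0.35 to 1.26) in the added comparison. Alveolar macrophage-like cells (153 CPM) and Spp1+ macrophage-like cells (147 CPM) came next in WT and overlapped. C1q+ macrophage-like (67.3 CPM) and mature dendritic-like cells (57.6 CPM) were lower and also overlapped. The Spp1+ macrophage-like value in KO, 267 CPM, rested mostly on 1 cell, which held 30 of its 50 UMIs. Within a class, Il1b and Il1rn were found together in part of the cells. Of 611 thinned WT neutrophil-like cells with an Il1b UMI, 29.5% also held an Il1rn UMI (25.9 to 33.3%), compared with 5.26% of the 19 cells without Il1b (0.133 to 26.0%). Only 6.71% of the 611 cells held an Il1a UMI.

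**Figure D3:**
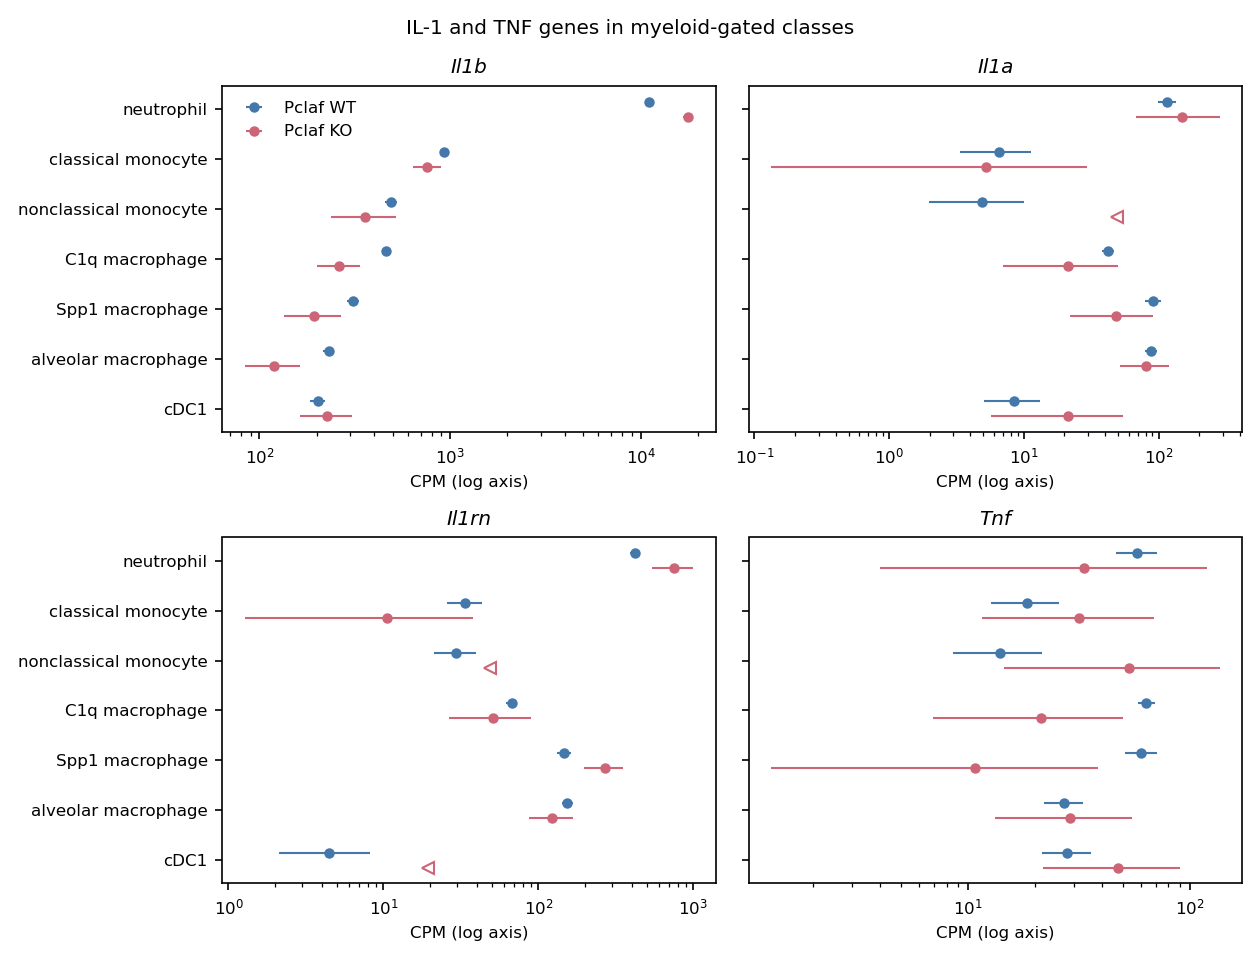
CPM (log axis) of Il1b, Il1a, Il1rn and Tnf in 7 myeloid classes of the WT and KO libraries, with bars for exact 95% Poisson intervals and open triangles at the upper limit of a class with 0 UMIs. Neutrophil-like cells lie above the other classes for Il1b, at 10998 CPM (WT) and 17736 CPM (KO).

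The receivers of IL-1 lay in other cells than its main source. Il1r1 was highest in venous endothelial-like cells, with 299.9 CPM in WT from 297 UMIs. Adventitial fibroblast-like cells (196 CPM) and alveolar fibroblast-like cells (159 CPM) followed and overlapped, and smooth muscle-like cells had 126 CPM. Ciliated-like (78.6 CPM), aerocyte-like (77.4 CPM), general capillary-like (72.9 CPM) and T-like cells (68.1 CPM) could not be ordered within counting error. AT2-like cells had 43.4 CPM, above B-like cells, which had 6.10 CPM and served as the class that should lack the receptor. Among KO classes of at least 50 cells, adventitial fibroblast-like (154 CPM), alveolar fibroblast-like (148 CPM), T-like (134 CPM) and smooth muscle-like cells (104 CPM) led, each overlapping the next. KO AT1-like cells, the thin cells of gas exchange, had 58.4 CPM, AT2-like cells 38.9 CPM and PAPC-like cells 24.2 CPM. The decoy receptor gene Il1r2, whose product binds IL-1 without signalling, was highest in neutrophil-like cells, where WT had 3073 CPM and KO had 3464 CPM. Il1rap, the coreceptor gene, was in WT also highest in neutrophil-like cells (516 CPM), followed among classes of at least 50 cells by mesothelial-like (67.9 CPM) and alveolar fibroblast-like cells (67.6 CPM).

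Il18 marked the alveolar macrophage-like class, which had 524 CPM in WT from 1931 UMIs with 87.4% of cells positive. The KO class had 544 CPM from 169 UMIs, and the log2 ratio of the added comparison was 0.05 (-0.18 to 0.28). Spp1+ macrophage-like cells had 156 CPM in WT and 139 CPM in KO. Outside the immune lineage, mesothelial-like cells, which line the lung surface, had 103 and 133 CPM in WT and KO, and a log2 ratio of 0.37 (-0.03 to 0.78). Ciliated-like cells had 26.7 CPM in WT and 17.5 CPM in KO. B-like cells had 25.7 CPM in WT (median depth 1931 UMIs), with an Il18 UMI in 2.03% of cells after thinning, and 0 UMIs in the 60 KO cells. The WT ciliated-like level was thus no higher than that of the class that should lack Il18. In KO, ciliated-like cells (128 UMIs, 14.6 to 20.8 CPM) came after mesothelial-like cells among classes of at least 50 cells. They did not overlap the next class, general capillary-like cells (3.77 CPM). The KO B-like cells, with 0 UMIs, allow up to 22.9 CPM and so set no close limit. The receiver gene Il18r1 was highest in basophil or mast-like cells (483 CPM from 44 cells), mesothelial-like (415 CPM), NK-like (403 CPM), ciliated-like (330 CPM) and AT1-like cells (304 CPM) in WT. In KO its levels were 396 CPM in AT1-like, 300 CPM in ciliated-like, 261 CPM in T-like and 225 CPM in mesothelial-like cells. Il18rap, which encodes the second receptor chain, was highest in WT in NK-like cells (770 CPM) and basophil or mast-like cells (761 CPM from 74 UMIs), which overlapped within counting error. Mesothelial-like cells therefore held both Il18 and Il18r1 UMIs in both libraries.

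Il33 was an AT2 gene in both libraries. AT2-like cells had 429 CPM in WT from 930 UMIs (402 to 458) and 417 CPM in KO from 18326 UMIs (411 to 423). The log2 ratio was -0.04 (-0.14 to 0.05), and its sign turned to 0.10 with TMM scaling, which moved the scale of this class by more than 0.1. After thinning to equal depth, 28.0% of WT and 27.8% of KO AT2-like cells held an Il33 UMI. Adventitial fibroblast-like (167 CPM), mesothelial-like (94.999 CPM) and venous endothelial-like cells (78.8 CPM) followed in WT. ILC2-like cells had 116 CPM, but all 29 of these UMIs came from 1 cell. In KO, PAPC-like cells had 242 CPM from 611 UMIs, mesothelial-like cells 151 CPM and adventitial fibroblast-like cells 114 CPM. The other alveolar epithelial classes were far below AT2-like cells, with 29.4 CPM in WT and 33.4 CPM in KO in Krt8+-like cells, the transitional state on the way to AT1, and 11.6 CPM in KO AT1-like cells. KO PAPC-like cells expressed a median of 8 AT2 markers of 8 in the gate's list, and their Il33 level was 1.12 times that given by their Sftpc level and the Il33 to Sftpc ratio of AT2-like cells. Sftpc, the surfactant protein C gene of AT2 cells, was used in this way as a measure of AT2 RNA in every class. Il33 was 45.9 times the level given by Sftpc in WT and 2.96 times in KO adventitial fibroblast-like cells, and the factors were 31.3 and 6.27 in mesothelial-like cells. In general capillary-like cells the factors were only 1.42 and 1.56. B-like cells, which should lack Il33, had 4.66 CPM in WT from 29 UMIs and 1 UMI in KO.

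Il1rl1, which encodes the IL-33 receptor ST2, was highest in lymphoid, basophil or mast-like and cDC2-like cells in WT. ILC2-like cells, innate lymphocytes that make type 2 cytokines, had 685 CPM from 171 UMIs, with 66.3% of cells positive. T-like cells with a Foxp3 UMI, the marker of regulatory T cells, had 329 CPM from 120 UMIs in 86 cells, compared with 40.4 CPM in all T-like cells. Basophil or mast-like cells had 226 CPM from 22 UMIs, and cDC2-like cells 66.3 CPM from 139 UMIs. B-like cells had 1.93 CPM from 12 UMIs. In KO the gene had 52 UMIs in all cells, of which 19 lay in 9 ILC2-like cells (434 CPM) and 1 in T-like cells. Source and receiver of IL-33 therefore lay in different lineages in both libraries, and the WT library held 930 Il33 UMIs in AT2-like cells beside 171 Il1rl1 UMIs in ILC2-like cells.

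**Figure D4:**
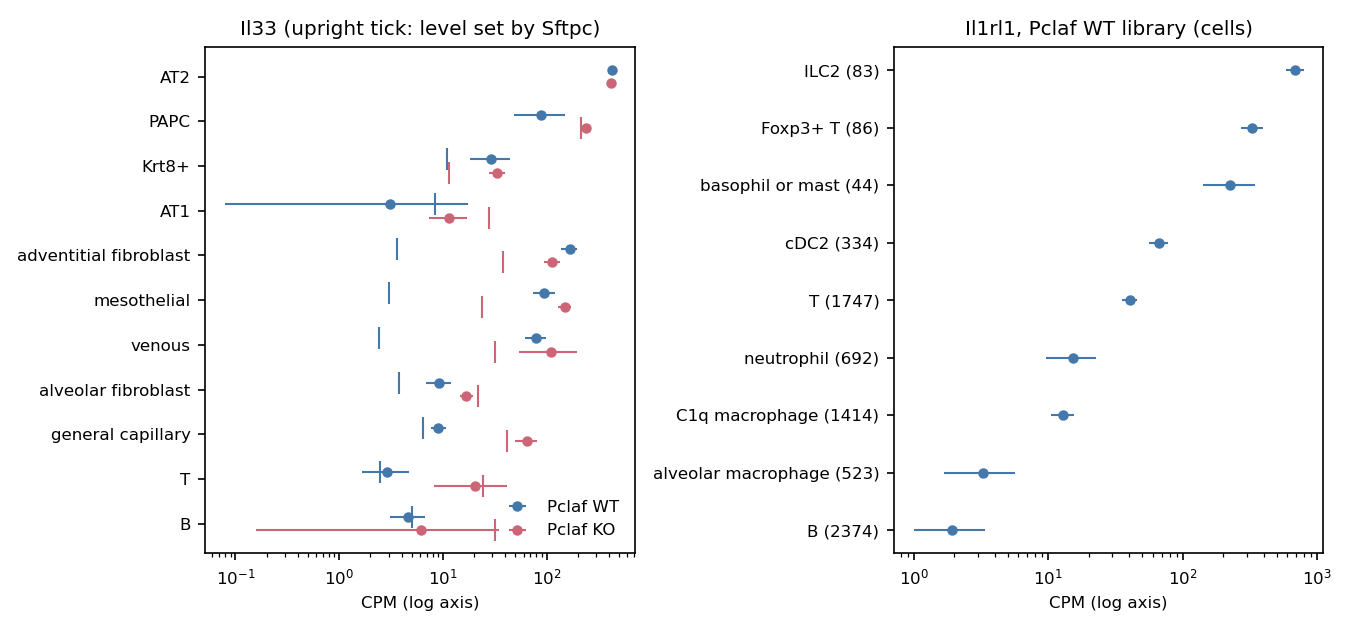
CPM (log axis) with exact 95% Poisson intervals of Il33 by class in both libraries (left) and of Il1rl1 by class in the WT library (right, cells of the class in brackets). Upright ticks give the Il33 level set by Sftpc. Il33 is highest in AT2-like cells at 429 and 417 CPM, and Il1rl1 is highest in ILC2-like cells at 685 CPM.

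Il6 came from fibroblasts and from a small granulocyte class. Basophil or mast-like cells had 2530 CPM in WT, from 246 UMIs in 44 cells of which 75.0% were positive, and 3235 CPM in KO from 37 UMIs in 5 cells. Among WT classes of at least 50 cells, adventitial fibroblast-like cells were highest at 114 CPM, but 89.9% of their 89 UMIs lay in 10 cells. Alveolar fibroblast-like cells had 43.1 CPM in WT from 257 UMIs and 57.7 CPM in KO from 683 UMIs, a log2 ratio of 0.42 (0.21 to 0.63). In adventitial fibroblast-like cells the ratio had the opposite sign, -1.18 (-1.70 to -0.68), with 50.3 CPM in KO. Activated fibroblast-like cells had 1 UMI in 60 WT cells (2.19 CPM) and 23 UMIs in 25 KO cells (116 CPM), where 16.0% of cells were positive. Ciliated-like cells held 0 Il6 UMIs in WT and 1 in KO. Among receptor genes in WT, Il6ra was highest in nonclassical (257 CPM) and classical monocyte-like cells (214 CPM), and T-like cells had 131 CPM. Il6st, which encodes gp130, was highest in WT in venous (1282 CPM), arterial (391 CPM) and general capillary-like cells (361 CPM). Among KO classes of at least 50 cells, mesothelial-like cells led for Il6ra (96.4 CPM) and Il6st (319 CPM).

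Tnf was a macrophage and granulocyte gene with low counts. In WT, C1q+ macrophage-like cells had 63.7 CPM from 493 UMIs, and Spp1+ macrophage-like (60.4 CPM), neutrophil-like (58.0 CPM) and cDC2-like cells (53.9 CPM) overlapped with them. Basophil or mast-like cells had 175 CPM from 17 UMIs in 44 cells. The C1q+ macrophage-like class held 27.1% of all WT Tnf UMIs. In KO, Tnf had 129 UMIs in all cells and no class held more than 14. ILC2-like cells had 206 CPM, from 9 UMIs of which 7 lay in 1 cell, cDC2-like cells had 167 CPM from 10 UMIs and alveolar macrophage-like cells 29.0 CPM from 9 UMIs. C1q+ macrophage-like cells had 21.4 CPM from 5 UMIs and Spp1+ macrophage-like cells 10.7 CPM from 2. Their log2 ratios in the added comparison were -1.57 (-3.20 to -0.34) and -2.50 (-5.56 to -0.62). The neutrophil-like ratio was -0.81 (-3.87 to 1.09). The alveolar macrophage, cDC1 and both monocyte-like ratios lay above 0, with intervals that included 0. AT2-like cells, with 14 UMIs, had 0.318 CPM, so that the KO level also lay in immune cells. Ciliated-like cells had 1 Tnf UMI in WT cells and 3 in KO cells. Tnf and Il1b were found in part of the same cells. Of 298 thinned WT C1q+ macrophage-like cells with Il1b, 11.4% also held Tnf (8.03 to 15.6%), compared with 3.26% of 1012 cells without Il1b (2.26 to 4.55%). In WT the receptor gene Tnfrsf1a was spread over venous (248 CPM), general capillary (246 CPM), arterial (238 CPM), neutrophil (237 CPM) and aerocyte-like cells (228 CPM). Tnfrsf1b was highest in WT in nonclassical monocyte-like (468 CPM) and neutrophil-like cells (370 CPM).

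The 2 libraries were compared within the 12 classes that had at least 50 cells in both, which were AT1, AT2, Krt8+, ciliated, club, mesothelial, alveolar and adventitial fibroblast, smooth muscle, general capillary, T and B-like cells. None of these classes was myeloid, so the top WT classes of Il1a, Il1b, Il1rn, Il18 and Tnf were not among them. A difference was counted from 1 log2 unit, with at least 10 UMIs over both libraries. Of 70 pairs of a member and a class, KO was higher in 7 and lower in 34. Over all genes, 7.46% of 151687 pairs were higher and 11.8% lower, counted in the same way. Of the 34 lower pairs 10 had 0 UMIs in KO, and in 6 of these the WT level was under what 3 UMIs would give in KO, so that the KO depth could not show a lower level. These were Il1a, Il6 and Il1rl1 in B-like, Il1a and Il1rn in T-like and Il6 in general capillary-like cells. Of the 7 higher pairs 6 were of Il33, and of the 34 lower pairs 11 were of Il1b, which was lower in all 11 classes where it could be compared. The Il33 intervals included 0 in AT1-like (1 and 24 UMIs), ciliated-like (1 and 51) and club-like cells (0 and 31). They lay above 0 in general capillary-like, T-like and smooth muscle-like cells. Il1r1 had no pair past this limit among 12. Its top WT class, venous endothelial-like cells, entered only the added comparison of classes with at least 20 cells. Its log2 ratio there was -1.45 (-2.47 to -0.59, 297 and 11 UMIs). In activated fibroblast-like cells it was 1.25 (0.46 to 2.04, 29 and 30 UMIs). In AT2-like cells 1 of 8 members was higher and 4 were lower, beside 10.4% and 7.79% of all genes. The higher one was Il1a, with 0 UMIs in WT, where 3 UMIs would be 1.38 CPM, and 17 in KO (0.386 CPM), so that the KO level lay under what the WT depth could show. In T-like cells 1 of 8 was higher and 5 lower (all genes 5.96% and 25.3%), but Il1a (3.79 CPM) and Il1rn (7.93 CPM) of WT lay under the 8.71 CPM of 3 KO UMIs. In general capillary-like cells 1 of 9 was higher and 5 lower (7.6% and 13.1%). In alveolar fibroblast-like cells 0 of 7 were higher and 4 lower (5.4% and 7.01%), and in adventitial fibroblast-like cells 0 of 4 and 2 (5.02% and 7.11%). In mesothelial-like cells 0 of 5 were higher and 2 lower (8.16% and 7.99%), and in ciliated-like cells 1 of 4 and 1 (7.19% and 6.25%).

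No myeloid class was compared, so the Il1b differences lay outside its main source class by the choice of classes. The Il33 differences past the limit also lay outside its main source, AT2-like cells. Marker RNA of the source class is given beside them. The summed level of the 8 neutrophil markers was lower in KO in 10 of the 11 classes with lower Il1b, and it was higher in T-like cells. G0s2 or Retnlg made up most of this sum in some classes, so S100a8 is also given by itself. S100a8 was higher in KO in Krt8+-like cells (1.34 and 2.57 CPM, 1 and 11 UMIs) and T-like cells (20.9 and 34.8 CPM). It was lower in KO in the other classes with lower Il1b, such as adventitial fibroblast-like cells (30.8 and 0.949 CPM). In general capillary-like cells Il1b had a log2 ratio of -2.78 (739 and 7 UMIs), and the list went from 158 CPM with 8 markers detected to 8.49 CPM with 3, where Csf3r, Cxcr2, Retnlg, Mmp9 and S100a8 were at 0. In mesothelial-like cells Il1b had a ratio of -4.10 (58 and 6 UMIs), and the list went from 1023 to 12.2 CPM. In alveolar fibroblast-like cells Il1b had 190 UMIs in WT and 6 in KO, a log2 ratio of -5.97 (-7.44 to -4.82), while the list was at 673 and 587 CPM. Of its markers G0s2 made up 530 and 586 CPM there, and S100a8 was at 60.4 and 0.254 CPM. In club-like cells Il1b had a ratio of -3.93 with the list at 66.1 and 59.0 CPM. Retnlg made up 45.4 and 54.9 CPM of it, and S100a8 was at 7.78 and 0.437 CPM (6 and 3 UMIs). In T-like cells Il1b was lower (-1.65, 252 and 5 UMIs) while the list went from 76.4 to 102 CPM. The part of neutrophil RNA in the Il1b values was not tested. The summed AT2 list was higher in KO in all 6 classes with higher Il33, with 8 of 8 markers detected in both libraries. In general capillary-like cells Il33 had a log2 ratio of 2.83 (2.39 to 3.25, 147 and 68 UMIs), while Sftpc went from 1961 to 15862 CPM and the AT2 list from 568 to 3384 CPM. In T-like cells the Il33 ratio was 2.82 from 16 and 7 UMIs, and the AT2 list went from 268 to 2584 CPM. The list was also higher in KO in the other compared classes outside AT2-like cells. The part of AT2 RNA in these Il33 values was not tested.

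Of the 14 pairs with at least 50 UMIs in both libraries, a limit set after the values were seen, 1 was higher and 1 lower past 1 log2 unit. These were Il33 in general capillary-like cells and Il6 in adventitial fibroblast-like cells, the latter at -1.18. Adventitial fibroblast-like cells were the top WT class of Il6 only among classes of at least 50 cells. Most of their WT Il6 UMIs lay in a few cells, a spread that the interval does not cover. No share over all genes was counted at this limit, so these counts are not set beside one. Il1r1 had log2 ratios of -0.10 (-0.21 to 0.02) in alveolar fibroblast-like, -0.35 (-0.68 to -0.02) in adventitial fibroblast-like and -0.16 (-0.46 to 0.16) in AT2-like cells. In T-like cells the Il1r1 ratio was 0.97 (0.50 to 1.42), just inside the limit of 1. Il33 had 0.67 (0.27 to 1.08) in mesothelial-like cells and -0.55 (-0.92 to -0.18) in adventitial fibroblast-like cells. From WT to KO the AT2 list went from 216 to 2255 CPM in mesothelial-like and from 290.04 to 2945 CPM in adventitial fibroblast-like cells. How much AT2 RNA added to the Il33 values of these classes was not tested.

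**Figure D5:**
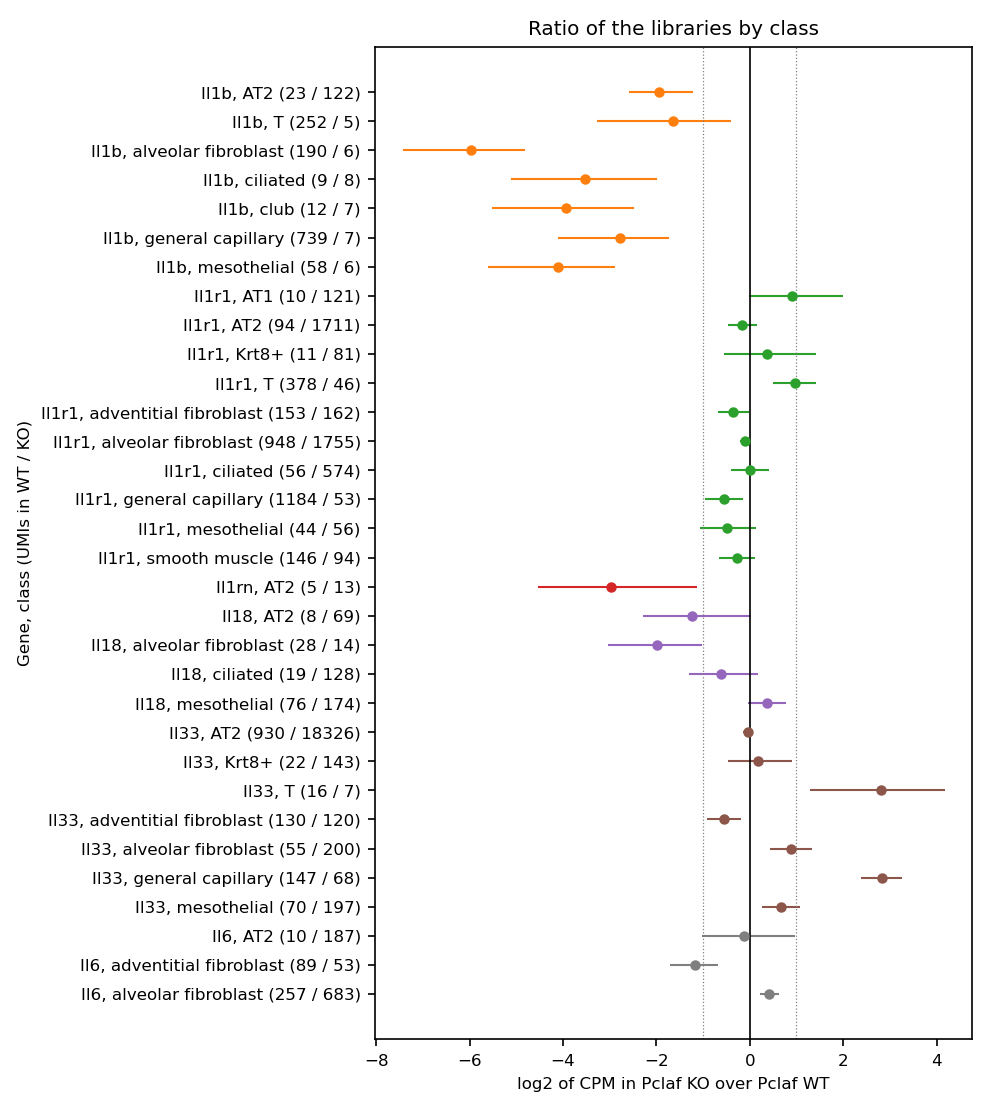
Log2 ratio of CPM, KO over WT, for the 32 of 70 pairs of a gene and a class that had at least 5 UMIs in each library, with exact conditional 95% intervals and dotted lines at 1 log2 unit. No pair of Il1a, Il1rl1 or Tnf reached 5 UMIs in both. The Il1r1 points lie within 1 log2 unit, the 7 Il1b points lie below -1, and the Il33 points run from -0.55 in adventitial fibroblast-like to 2.83 in general capillary-like cells.

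Other genes of these pathways were followed as a list of 53 ligands, receptors, inflammasome parts and signalling genes. In AT2-like cells 1 of 45 was higher and 4 were lower in KO, beside 10.4% and 7.79% of all genes. The higher one was Lif, an IL-6 family ligand, with 0 UMIs in WT and 39 in KO (0.887 CPM), also under the WT limit of 1.38 CPM. Ltb, which encodes lymphotoxin beta (-4.08, 5 and 6 UMIs), and Osm, another IL-6 family ligand (-3.17, 4 and 9 UMIs), were among the lower ones. In alveolar fibroblast-like cells 1 of 46 was higher and 7 were lower (all genes 5.4% and 7.01%), led by Osm (-5.35, 41 and 2 UMIs) and the inflammasome sensor gene Nlrp3 (-5.24, 19 and 1 UMIs). In general capillary-like cells 0 of 47 were higher and 11 lower (all genes 7.6% and 13.1%), and Osm (114 UMIs), the DNA sensor gene Aim2 (109 UMIs) and Il18rap (69 UMIs) of WT were at 0 UMIs in KO, where 3 UMIs would be 2.83 CPM. Osm and Nlrp3 are known from myeloid cells, and in WT Osm had 623 CPM and Nlrp3 568 CPM in neutrophil-like cells. The part of myeloid RNA in their values in other classes was not tested. In T-like cells 3 of 47 were higher and 7 lower, a smaller share lower than the 25.3% of all genes (5.96% higher), and in mesothelial-like cells 1 of 39 and 6 (8.16% and 7.99%). Both ciliated-like (7.19% and 6.25%) and adventitial fibroblast-like cells (5.02% and 7.11%) had 2 of 37 higher and 2 lower. The Il18r1 ratio was 3.65 in adventitial fibroblast-like cells (1 and 17 UMIs) and 1.61 in alveolar fibroblast-like cells (21 and 127 UMIs). The median log2 ratio of the list ran from -0.41 in T-like cells to -0.11 in adventitial fibroblast-like cells over these 7 classes, and that of all genes from -0.226 to -0.045.

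The genes with the most similar pattern over the 29 WT classes were sought among 12728 genes, by Pearson correlation of log2(CPM + 10), as a description over points that share 1 library. Il1b was most like Nlrp3 (r = 0.927), Lrrc25 (0.911) and Gm34084 (0.907), and then Lilrb4a (0.904) and Cd80 (0.902). Il1rn was most like Osm (0.9496), C5ar1 (0.928), Pira2 (0.918), Slc7a11 (0.914) and Clec5a (0.912). Il1a shared 2 of these, Clec5a (0.897) and C5ar1 (0.894), followed by Ccr1 (0.884), Plk3 (0.883) and Gla (0.877). Tnf was most like the cytokine receptor genes Csf2rb (0.894) and Csf2ra (0.876), with Snx20 (0.873), Lilr4b (0.873) and Nfkbid (0.870). Il18 was most like B3gnt7 (0.875), Htr2c (0.864), C530008M17Rik (0.847), Vstm2a (0.835) and Slc9a4 (0.816). Il6 was most like D430041D05Rik (0.896), Gdf10 (0.892), Ptgfr (0.880) and Mmp3 (0.878). The receptor Il1r1 was most like Klhl13 (0.866), Zhx3 (0.857), Auts2 (0.847), Pcdhgc4 (0.846) and Nfib (0.844), and Il1rl1 was most like Pdcd1 (0.861), Xlr4b (0.856), Xlr4a (0.851), Stab2 (0.845) and Cxcr6 (0.830). Il33 had the least similar neighbors, with Rab27b (0.721), Lrp2 (0.717), Epha7 (0.669), Tmem132d (0.652) and Lamp3 (0.643), the last of which is a marker of the AT2 gate. The Il33 pattern includes the ILC2-like value, whose UMIs all came from 1 cell. The part of that value in these correlations was not tested.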

How the data were processed

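For both libraries the authors deposited raw UMI counts, by gene and by barcode, with nothing normalized. The submitters' processing notes name Cell Ranger 3.1.0, STAR and the GRCm38 (mm10) build, and the matrix headers name Cell Ranger 5.0.0. Barcodes with more than 200 and fewer than 5000 genes and under 20% mitochondrial UMIs were kept. A cell took the lineage with the most detected pan markers (at least 2, and at least 2 more than the next), and then the class with the highest share of detected markers (at least 3, mesothelial-like at least 4). Ties stayed ungated. Doublets were otherwise kept, and Scrublet in scanpy 1.11.5 served as an alternative. It called 6.19% of WT cells and 0.0064% of KO cells, where it did not work. Deposited counts were summed per class and library and given as CPM with exact Poisson intervals (SciPy 1.17.1). Ratios had exact conditional intervals, shares exact Clopper-Pearson intervals, and a count of 0 a floor of 3 UMIs. The ratio interval was tested on simulated data. TMM factors came from edgeR 4.0.16 in R 4.3.3. Cells were thinned to 1000 UMIs to compare shares, leaving out shallower cells. Named genes were the 9 members, pathway genes past 1 log2 unit with at least 10 UMIs (at most 3 a class), and the 5 most similar genes of each member among those with at least 200 UMIs. A similar gene of Il6 is not reported here. The members and lists were chosen with earlier results of these data known. Promoters came from RefSeq (GRCm38.p6), which matched all 9 members.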

Additional observations from a re-analysis of the deposited data

Results flagged for a closer look

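For 3 genes the log2 ratio of KO over WT had opposite signs in classes of the same 2 libraries, with intervals on either side of 0. Il1r1 had 0.97 in T-like cells and -0.54 in general capillary-like cells. Il33 had 2.83 in general capillary-like cells and -0.55 in adventitial fibroblast-like cells. Il6 had 0.42 in alveolar fibroblast-like cells and -1.18 in adventitial fibroblast-like cells, where most of the WT UMIs lay in a few cells. These differences between classes were not tested, since there was 1 library per genotype. Outside the cells kept for the comparisons, Il33 had 126 CPM (1171 UMIs) in the 1535 barcodes removed from the KO library, above the 29.7 CPM (74 UMIs) in the 482 barcodes removed from WT. The kept cells differed in the same direction. Epithelial cells that took a class were 54.4% of kept KO cells, with 19190 Il33 UMIs, and 2.74% of kept WT cells, with 968. The cell types of the removed barcodes are not described here, and the part of library composition in this difference was not tested.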

How the results depend on the processing

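Of the values that answer a comparison, 206 alternatives moved by less than the counting interval and 38 by more. A reversal could be counted only for a log2 ratio past 1 unit. Among these values only Il6 in adventitial fibroblast-like cells (-1.18) was past it, and it kept its sign. Most alternatives could therefore not count as reversed, and some ratios inside the limit changed sign, as given below. For Il1b in WT neutrophil-like cells (10998 CPM), the level was 12479 without mitochondrial and ribosomal protein genes, 13684 with thinned cells, 10402 with the class of the nearest cells, 11726 without doublets under either limit and 11177 with TMM factors. Il1rn in these cells (422 CPM) had 478 without those genes, 524 thinned and 459 without doublets under either limit. Without mitochondrial and ribosomal protein genes, Il1r1 in venous endothelial-like cells had 357 CPM, Il18 in alveolar macrophage-like cells 616, Il33 in AT2-like cells 500.3, Il1rl1 in ILC2-like cells 885 and Tnf in C1q+ macrophage-like cells 78.1. With thinned cells, Il1r1 in venous endothelial-like cells had 185 CPM, Il6 in adventitial fibroblast-like cells 87.0 and Tnf in C1q+ macrophage-like cells 70.2. Il18 had 485 CPM with the nearest cells, Il33 389 with a lineage lead of 3 and Il1rl1 818 with 4 class markers. Of the log2 ratios, thinned cells gave 0.16 for Il1r1 in AT2-like and 0.24 in adventitial fibroblast-like cells, where the main values were negative. They also gave -1.12 for Il33 and -1.80 for Il6 in adventitial fibroblast-like cells, 0.70 for Il6 in alveolar fibroblast-like cells and 1.10 for Il33 in mesothelial-like cells. The Il33 ratio in AT2-like cells was 0.10 with a lead of 3 and with TMM factors, and -0.16 with the nearest cells. The causes of these shifts were not tested. The count of 7 pairs higher in KO was 4 with thinned cells, 16 with the nearest cells, 3 at 30 UMIs and 18 with classes of at least 20 cells, and that of 34 lower pairs was 17, 55, 19 and 55. Each of these settings also changed how many of the pairs were compared (70), to 39, 119, 47 and 135. At 30 UMIs the share over all genes ran by class from 1.94% to 5.68% higher and from 2.91% to 28.1% lower. No such share was counted under the other settings, so their counts are not set beside one. The class limit of 20 cells, the run without shared barcodes and the WT doublet limit in both libraries were chosen after seeing the data. No paired analysis was possible because each genotype had 1 library. Depth limits the small KO classes, in which many values rest on fewer than 10 UMIs.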

Other observations

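Basal-like cells, the stem cells of the airway, were numerous enough to describe in KO only (61 cells). Their Il1b level of 82.6 CPM came from 34 UMIs in 1 cell, so that it is not a level of the class. In WT Spp1+ macrophage-like cells, Tnf was found in 9 of 60 thinned cells with Il1b and in 12 of 242 without, and in C1q+ macrophage-like cells Il1rn was found in 9.73% and 5.14%. In KO mesothelial-like cells, Il18 was found in 5 of 25 thinned cells with Il33 and in 23 of 146 without.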
